A study of Mus musculus with 24 samples.

Results

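The epididymal white fat of conventional mice was compared with that of germ-free mice, all fed fish oil. The 12 arrays, 6 in each group, were taken by the diet and bacterial status in their labels from the 24 arrays of a study that fed lard or menhaden fish oil to mice of both kinds. All were wildtype male C57Bl/6 mice, 11 weeks old when the diets began, kept for 11 weeks on diets of equal energy with 45% of it from fat, and fasted for 4 h before death. Conventional mice carry a microbiota and germ-free mice are raised without one. The labels give a number to each mouse, but neither the breeding colony nor the housing of either group, so the colony and the bacterial status cannot be told apart. Total RNA (250 ng a mouse) was hybridised to a 1-colour Affymetrix array, and the values are log2 signals. Levels below are log2 signals given as the lowest, median and highest of the 6 mice of a group. A difference is the mean of the conventional mice minus that of the germ-free mice, so 1 unit is a doubling.

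Epididymal fat stores triglyceride in adipocytes, which also make fatty acids from glucose and acetate, and it holds macrophages, lymphocytes, progenitors and vessels. Macrophages that gather around dying or overloaded adipocytes take up lipid and express a set of lysosomal and lipid-handling genes that includes Trem2, Gpnmb and Itgax. Fish oil carries the omega-3 fatty acids EPA and DHA, which are known to lower the processing of SREBP-1, the factor that drives fatty acid synthesis genes, and to act on the receptor Ffar4 of adipocytes and macrophages. The gut microbiota supplies bacterial products sensed by Toll-like receptors and short-chain fatty acids sensed by Ffar2.

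The samples had the profile of adipose tissue. The mean of 17 adipocyte genes measured lay between 12.36 and 12.60 in conventional mice and between 12.26 and 12.42 in germ-free mice, and Adipoq, which encodes adiponectin, differed by 0.05 (SE 0.12, adjusted p = 0.855). Arrays of a group correlated at 0.987 to 0.994 in conventional and 0.986 to 0.993 in germ-free mice. Array medians lay slightly lower in conventional mice (7.1 to 7.131) than in germ-free mice (7.17 to 7.198). Of the lists for tissues that could be cut out with the depot, those for intestinal epithelium, exocrine pancreas, epididymis and testis, and skeletal muscle had 0 members past the threshold in limma. At an unadjusted p under 0.05 they had 1, 1, 0 and 2 members, against 5239 of all 19938 genes. Hepatocyte transcripts did differ, and their values are given below. Conventional mice 5 and 6 stood apart from the other conventional mice in glucocorticoid-responsive genes, with list means of 10.75 and 10.70 against 10.01 to 10.30, so counts of the larger lists are also given without them. In the lard-fed mice, which enter the comparison of diets and the common estimate of spread, germ-free mouse 4 had an intestinal epithelium list mean of 9.18 against 5.73 to 6.47 in the others. Without that mouse 2408 genes were called with fish oil, and 925 differed between the diets.

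A total of 2464 of 19938 genes (12.4%) differed at a limma adjusted p under 0.05. Of these, 1425 (7.15% of the genes tested) were higher and 1039 (5.21%) lower in conventional mice, and the median difference over all genes was -0.01. Most differences were small, since 79 genes were at least 1.5-fold higher and 282 at least 1.5-fold lower. In 759 genes (3.81%) every conventional mouse lay above every germ-free mouse, and in 642 genes (3.22%) every one lay below. The share of calls that were higher was 57.8%, and it was 79.7% (2757 higher, 701 lower) once each array was centred on its median. Without conventional mice 5 and 6, 931 genes were higher and 675 lower. With the mean of the hepatocyte transcripts as a covariate the counts were 854 and 757. That mean nearly separated the groups, at 6.42 to 7.58 in conventional against 7.57 to 8.67 in germ-free mice. Covariate counts here and below thus cannot tell the part of these transcripts from that of the group.

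**Figure D1:**
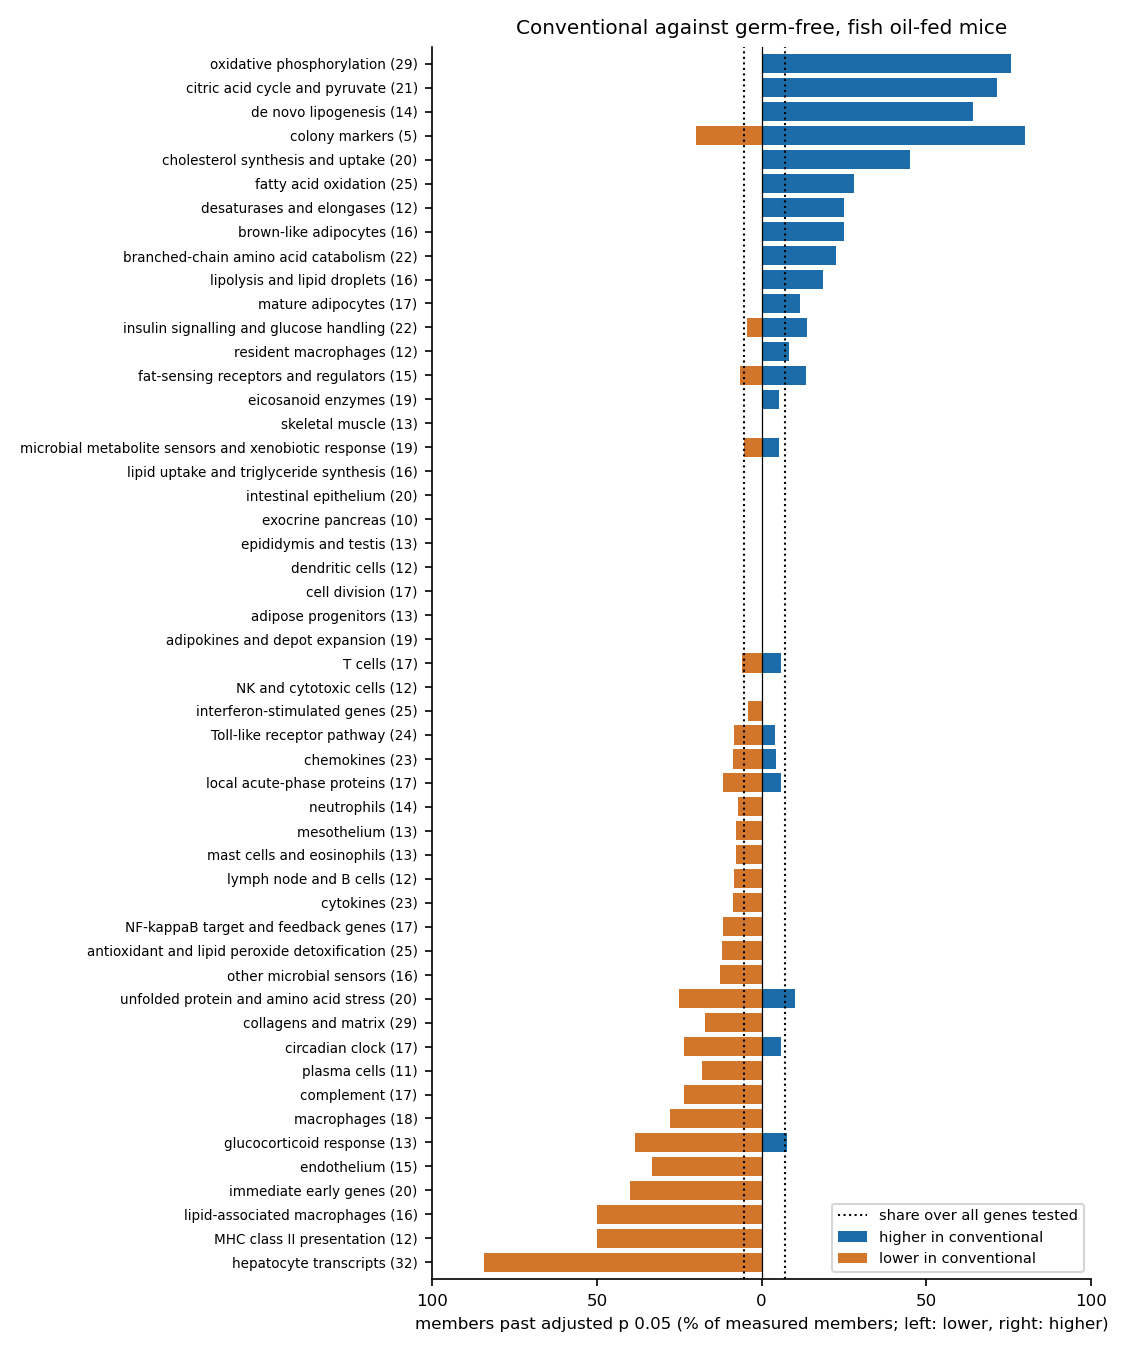
Share of the measured members of each gene list (number in brackets) that passed an adjusted p of 0.05 in limma, higher in conventional mice to the right and lower to the left; dotted lines mark the shares over all 19938 genes, 7.15% and 5.21%. Energy and lipid synthesis lists lie at the top with 22 of 29 oxidative phosphorylation genes higher, and hepatocyte, antigen presentation and lipid-associated macrophage lists lie at the bottom.

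Genes of mitochondrial respiration were higher in conventional mice. Of 29 subunits of the respiratory chain and ATP synthase measured, 22 passed the test, all higher, and 0 were lower, with a median difference of 0.31 against -0.01 over all genes. In 17 of the 29 the groups did not overlap. Ndufa1, a subunit of complex I, had levels of 9.76, 9.91 and 10.2 in conventional mice against 8.88, 9.32 and 9.45 in germ-free ones, a difference of 0.70 (SE 0.12, adjusted p = 0.00071). The other complex I subunits with the largest differences were Ndufb8 (0.61), Ndufa2 (0.53), Ndufb3 (0.53) and Ndufa5 (0.51). The mean of the list lay between 11.48 and 11.74 in conventional and between 11.19 and 11.39 in germ-free mice, so every conventional mouse was above every germ-free mouse. The count was 18 to 23 when any 1 mouse was left out, 10 without conventional mice 5 and 6, and 14 with the hepatocyte covariate.

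The enzymes that feed the chain differed in the same direction. Of 21 genes of the citric acid cycle and pyruvate oxidation, 15 were higher and 0 lower, with a median difference of 0.31. Pdk1, a kinase that inhibits pyruvate dehydrogenase, was higher by 0.55 (adjusted p = 0.00315). Pdhb and Dlat, subunits of that same complex, were both higher by 0.44 (adjusted p = 0.00536 and 0.00178), and in all 3 genes the groups did not overlap. The count was 8 to 17 when any 1 mouse was left out, falling by over 1.5 times without conventional mouse 3, 5 or 6 or germ-free mouse 3 or 5, and it was 4 without conventional mice 5 and 6 together. Mouse 6 had the highest list mean, 11.68, and the other conventional mice had 11.23 to 11.50 against 11.02 to 11.22 in germ-free mice.

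Fatty acid oxidation showed smaller differences. Of 25 genes measured, 7 were higher and 0 lower, with a median of 0.21. Acadvl, the first dehydrogenase for very long chains, was higher by 0.39 (adjusted p = 0.0149), Hadhb, a subunit of the trifunctional protein, by 0.35 (adjusted p = 0.00487), and Slc25a20, the carrier of acylcarnitines into mitochondria, by 0.35 (adjusted p = 0.00275). Of 22 genes of branched-chain amino acid breakdown, 5 were higher, among them Mccc2 (0.48) and Mccc1 (0.46), the subunits of methylcrotonyl-CoA carboxylase. Without any 1 mouse the second count was 3 to 6, lowest without conventional mouse 6 or germ-free mouse 3. Without conventional mice 5 and 6 the counts of the oxidation and amino acid lists were 3 and 1. With the hepatocyte covariate they were 9 and 11, and after median centring 11 and 12.

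Fatty acid synthesis had the largest median difference of the lipid lists. Of 14 genes of de novo lipogenesis, 9 were higher and 0 lower in conventional mice, with a median of 0.56. Elovl6, which elongates palmitate, had levels of 10.47, 10.75 and 11.45 against 9.1, 9.95 and 10.29, a 2.02-fold difference (1.02 log2, SE 0.17, adjusted p = 0.00058) without overlap. Acss2, which activates acetate, had levels of 10.05, 10.28 and 10.88 against 8.76, 9.64 and 9.94, higher by 0.86 (adjusted p = 0.00217), also without overlap. Acly, which makes cytosolic acetyl-CoA from citrate, was higher by 0.85 (adjusted p = 0.00265). Acaca, the carboxylase that makes malonyl-CoA, was higher by 0.76 (adjusted p = 0.00333), and for both of these genes the lowest conventional mouse lay inside the germ-free range. Fasn, which builds palmitate, was higher by 0.46 (adjusted p = 0.0168). The germ-free mice were the more variable group, with list means from 10.26 in mouse 3 to 11.06 in mouse 4 against 11.12 to 11.53 in conventional mice. The count was 7 to 10 when any 1 mouse was left out.

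Among 12 desaturases and elongases, 3 were higher and 0 lower in limma, with differences from -0.61 to 0.90. At an unadjusted p under 0.05 in limma 3 were higher and 1 lower, against 5239 of all 19938 genes in either direction. Scd2 was higher by 0.90 (adjusted p = 0.00455) and Fads1, the delta-5 desaturase of polyunsaturated fatty acids, by 0.49 (adjusted p = 0.00455). Scd1, the main adipose stearoyl-CoA desaturase, differed by 0.08 (SE 0.06, adjusted p = 0.399) and its levels reached 13.75 to 14.07, near the top of the array's range of 14.59.

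Cholesterol synthesis was higher in the same mice. Of 20 genes, 9 were higher and 0 lower, with a median of 0.33. Idi1, which makes dimethylallyl diphosphate, had levels of 9.25, 9.51 and 9.84 in conventional and 8.39, 8.75 and 9.23 in germ-free mice, a difference of 0.80 (SE 0.17, adjusted p = 0.0029). Pmvk, phosphomevalonate kinase, was higher by 0.66 (adjusted p = 0.00116), and neither gene's groups overlapped. Nsdhl (0.65), Lss (0.58), Cyp51 (0.57) and Sqle (0.51), enzymes of the later steps, had overlapping groups. Cyp51 and Sqle lost their calls in several fits that left out 1 mouse, for example without conventional mouse 3 (adjusted p = 0.0767 and 0.107). The conventional mice fell into high and low values for this list, mice 1, 2 and 3 having means of 9.64, 9.65 and 9.75 while mice 4, 5 and 6 had 9.20, 9.25 and 9.30. Germ-free means ran from 8.96 to 9.36. The count was 4 with the hepatocyte covariate.

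**Figure D2:**
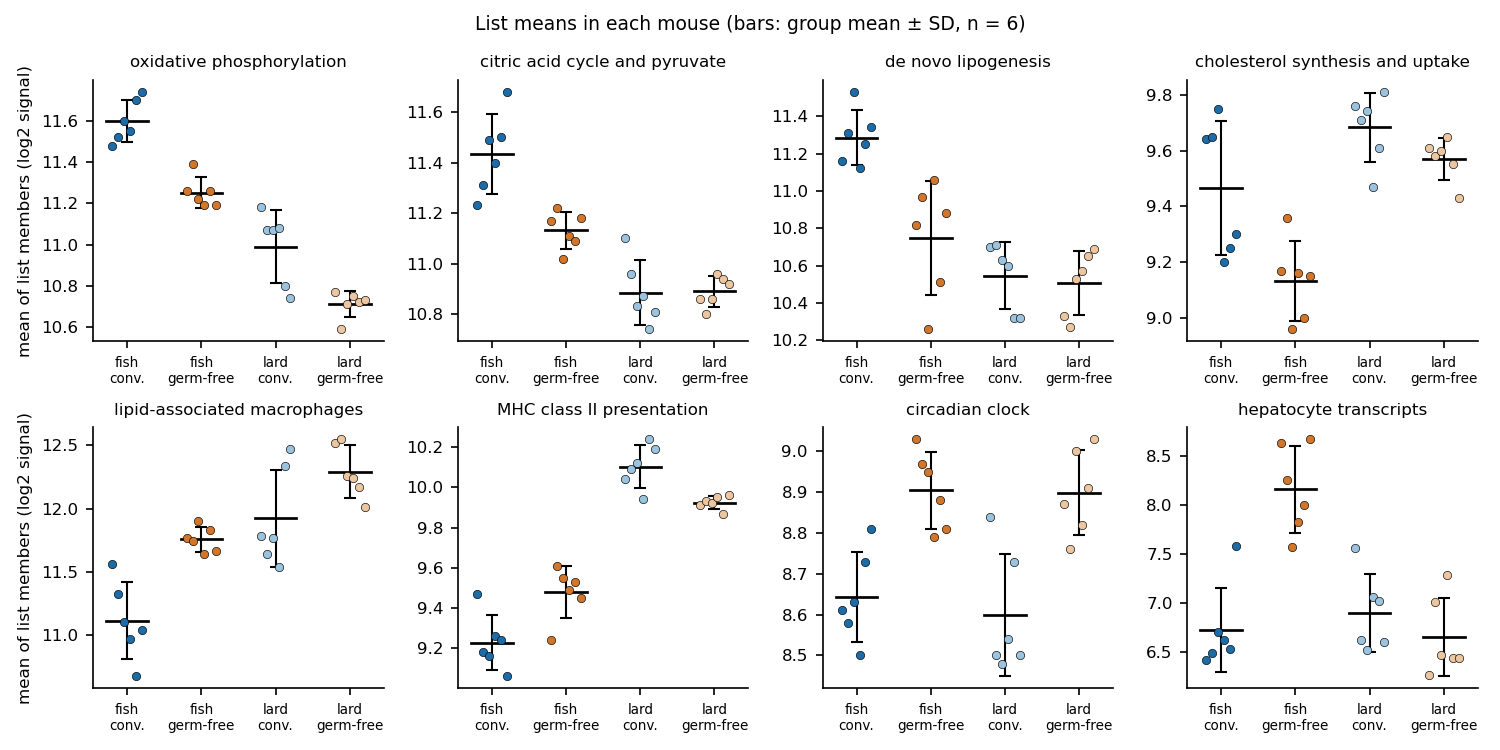
Mean log2 signal of the members of 8 gene lists in each of the 24 mice, by diet and bacterial status, with bars for the group mean and SD (n = 6). In fish oil-fed mice the oxidative phosphorylation means of conventional mice (11.48 to 11.74) all lie above those of germ-free mice (11.19 to 11.39), and the lipid-associated macrophage means (10.67 to 11.56) all lie below (11.64 to 11.90).

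Genes of thermogenic adipocytes differed in part. Of 16 measured, 4 were higher and 0 lower in limma, with differences from -0.61 to 1.20. The groups did not overlap in 2 higher genes and 1 lower gene, against 3.81% and 3.22% of all genes. At an unadjusted p under 0.05 in limma 5 were higher and 1 lower, against 5239 of all 19938 genes in either direction. Cidea, a lipid droplet protein abundant in brown fat, had levels of 7.66, 8.02 and 9.73 in conventional mice against 6.79, 7.09 and 7.19, a 2.30-fold difference (SE 0.23 on the log2 scale, adjusted p = 0.00164). Conventional mouse 6 carried the top value, and without mice 5 and 6 the difference was 0.86 (adjusted p = 0.00144). Cox8b, a cytochrome oxidase subunit of brown fat and muscle, was 2.29-fold higher (adjusted p = 0.00732). Cox7a1 was higher by 0.79 and Ppargc1a, a coactivator of mitochondrial genes, by 0.50 (adjusted p = 0.0404). The Ppargc1a call was lost in several fits that left out 1 mouse, for example without conventional mouse 6 (adjusted p = 0.106). Ucp1, the uncoupling protein that defines thermogenic fat, differed by 0.12 (SE 0.10, adjusted p = 0.469) with levels of 5.78 to 6.45 and 5.74 to 6.19. Without mice 5 and 6 the list's count was 2, and Cox8b had an adjusted p of 0.0598.

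General adipocyte genes stayed close. Of 17 mature adipocyte genes 2 were higher, Cidea and Gpd1, and of 19 adipokine and depot expansion genes 0 passed the limma test in either direction, with 4 at an unadjusted p under 0.05. Over all 19938 genes 5239 passed that unadjusted threshold. Leptin (Lep) differed by -0.11 (adjusted p = 0.635), Angptl4, a lipoprotein lipase inhibitor, by -0.08 (adjusted p = 0.558) and the insulin-responsive glucose transporter Slc2a4 by 0.10 (adjusted p = 0.831). G0s2, an inhibitor of adipose triglyceride lipase, was higher by 0.91 (adjusted p = 0.0061) without overlap. Fam13a, a gene tied to fat distribution and insulin signalling, was lower by 1.04 (adjusted p = 0.0215), with a wide range in conventional mice of 9.73 to 12.44.

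Among receptors for fatty acids, Ffar4 had levels of 8.87, 9.02 and 9.16 against 8.34, 8.66 and 8.81, a difference of 0.41 (SE 0.11, adjusted p = 0.0147) without overlap. Without conventional mice 5 and 6 it was 0.37 (adjusted p = 0.0752). Ffar2 was higher by 0.44 (adjusted p = 0.0145), with 1 conventional mouse, mouse 5 at 9.59, inside the germ-free range. Gpr50, a receptor with no known ligand from the melatonin receptor family, had levels of 5.21, 5.73 and 7.34 against 6.05, 7.12 and 8.29. It was lower by 1.21 (adjusted p = 0.0395) with overlapping groups, and the call was lost in 8 of the 12 fits that left out 1 mouse.

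The largest differences in both directions lay mostly outside these pathways. Rasd1, a small GTPase induced by glucocorticoids, had levels of 9.68, 10.29 and 10.62 against 7.18, 8.1 and 8.75, a 4.35-fold difference (2.12 log2, SE 0.22, adjusted p = 2.9e-06) and the largest called rise. Gys2, the glycogen synthase typical of liver, was 2.60-fold higher (adjusted p = 0.00058) and Sult1e1, which sulphates oestrogens, 2.52-fold (adjusted p = 0.0141). Rgs7, a regulator of G protein signalling, was 2.16-fold higher (adjusted p = 7.1e-05) and Aspa, which releases acetate from N-acetylaspartate, 2.02-fold (adjusted p = 0.00019), both without overlap. Hsd11b1, which regenerates active glucocorticoid, was 1.91-fold higher (adjusted p = 0.00414), again without overlap. Angpt1, a ligand of the endothelial receptor Tie2, was 2.23-fold higher (adjusted p = 0.0206), but its difference fell from 1.16 to 0.49 (adjusted p = 0.171) without conventional mice 5 and 6. Sult1e1 fell to 0.93 (adjusted p = 0.118) in the same fit.

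**Figure D3:**
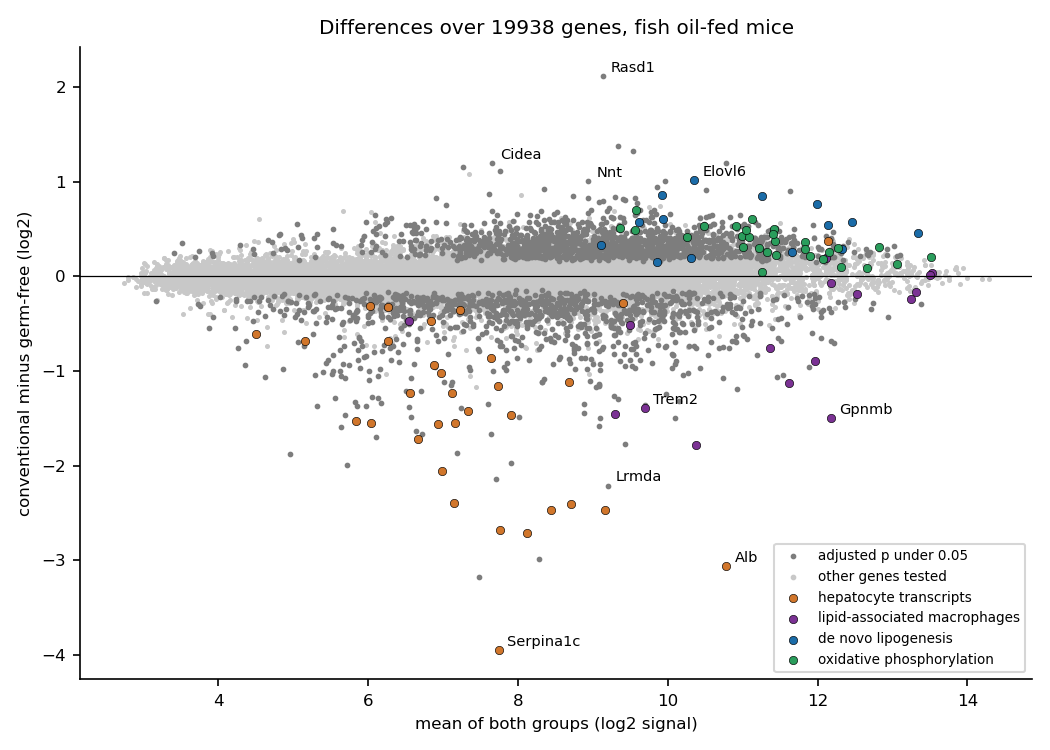
Difference between conventional and germ-free fish oil-fed mice (log2) against the mean of both groups (log2 signal) for 19938 genes, with the genes past an adjusted p of 0.05 in dark grey and 4 gene lists in colour. Rasd1 is the largest called rise at 2.12 and Serpina1c, a hepatocyte transcript, the largest fall at -3.95.

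Lipid-associated macrophage genes were lower in conventional mice. Of 16 measured, 8 passed the test, all lower, with a median of -0.49, and in 7 the groups did not overlap. Fewer cells of a type and less RNA per cell cannot be told apart in whole tissue. Trem2, the lipid receptor of these cells, had levels of 8.19, 8.83 and 9.92 against 10.05, 10.35 and 10.89, a 2.62-fold difference (-1.39 log2, SE 0.29, adjusted p = 0.00275). Atp6v0d2, part of the proton pump that acidifies lysosomes, was 3.44-fold lower (8.11, 9.53 and 10.69 against 10.94, 11.22 and 11.71, adjusted p = 0.00226). Gpnmb, a membrane glycoprotein of lysosomes, was 2.83-fold lower (adjusted p = 0.00106), Itgax, which encodes CD11c, 2.74-fold (adjusted p = 0.00361) and the elastase Mmp12 2.20-fold (adjusted p = 0.00306). None of these 5 genes had overlapping groups. Conventional mouse 1 had the highest list mean of its group, 11.56, and mouse 5 the lowest, 10.67. The count was 7 or 8 without any 1 mouse, and 6 both without conventional mice 5 and 6 and with the hepatocyte covariate.

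General macrophage markers differed less evenly. Of 18, 5 were lower and 0 higher, with a median of -0.25. Mpeg1, a pore-forming protein, was lower by 1.04 (adjusted p = 0.00073), the lysosomal protein Cd68 by 0.96 (adjusted p = 0.00097) and lysozyme (Lyz2) by 0.43 (adjusted p = 0.00051). Adgre1, which encodes F4/80, differed by -0.17 (SE 0.21, adjusted p = 0.661), with levels of 9.89 to 10.69 and 9.92 to 10.76 that overlapped almost wholly. Of 12 resident macrophage genes 1 was higher, the phosphatidylserine receptor Timd4 (0.36, adjusted p = 0.0284), and 0 were lower, a share of 8.33% against 12.4% over all genes. The Timd4 call was lost without any 1 of conventional mice 4 and 5 or germ-free mice 1, 5 and 6. It was also lost without conventional mice 5 and 6 together and with the hepatocyte covariate. The macrophage list means ranged from 9.45 to 9.97 in conventional and from 9.58 to 10.21 in germ-free mice, so the groups overlapped.

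Antigen presentation genes were lower as well. Of 12 genes of MHC class II presentation, 6 were lower and 0 higher, with a median of -0.24. Ctss, the protease that trims the invariant chain, was lower by 1.07 (adjusted p = 0.00161) and was the 1 gene of the list without overlap. Cd74, the invariant chain, was lower by 0.34 (adjusted p = 0.0036), H2-Aa by 0.35 (adjusted p = 0.0169), H2-Eb1 by 0.32 (adjusted p = 0.0146) and Ciita, the master activator of the pathway, by 0.30 (adjusted p = 0.00641). Levels of Ciita were 7.36, 7.47 and 7.57 against 7.49, 7.8 and 8.04, and those of Cd74 11.59, 11.78 and 11.96 against 11.78, 12.14 and 12.36. The list means overlapped, at 9.06 to 9.47 in conventional mice against 9.24 in germ-free mouse 1 and 9.45 to 9.61 in the other germ-free mice. The count was 2 with the hepatocyte covariate.

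Receptors and signals of innate immunity mostly stayed under the threshold. In the Toll-like receptor pathway 1 of 24 genes was higher and 2 lower, Tlr13, a sensor of bacterial ribosomal RNA (8.03, 8.36 and 9.15 against 9.24, 9.5 and 10.43, a difference of -1.16, adjusted p = 0.00666), and the adaptor Ticam1 (-0.28, adjusted p = 0.0292). The share called was 12.5%, against 12.4% over all genes. The Ticam1 call was lost after median centring, with the hepatocyte covariate and without conventional mice 5 and 6 together. It was also lost without any 1 of conventional mice 3, 5 and 6 or germ-free mice 3 to 5. Tlr4, the receptor for lipopolysaccharide, differed by -0.04 (SE 0.10, adjusted p = 0.846). Its levels were 8.93 to 9.03 in conventional mice, inside the germ-free range of 8.78 to 9.26. Of 16 other microbial sensors 2 were lower, the C-type lectins Clec4d (-1.12, adjusted p = 0.0413) and Clec7a (-1.10, adjusted p = 0.0108). That share is at the background of 12.4%, and without conventional mice 5 and 6 the count was 0, with adjusted p values of 0.188 and 0.0679.

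Among 23 chemokines, Ccl3, which attracts monocytes, was 2.84-fold lower (adjusted p = 0.00616), 1 more was lower and Pf4, platelet factor 4, was higher by 0.55 (adjusted p = 0.0416), a call lost in 8 of the 12 fits that left out 1 mouse and with fish oil-fed mice only (adjusted p = 0.0819). Ccl2 differed by -0.37 (SE 0.28, adjusted p = 0.435). Among 23 cytokines 2 were lower, Il1a (4.99, 5.16 and 5.6 against 5.29, 6.18 and 6.67, a difference of -0.92, adjusted p = 0.00058) and Tgfb1 (-0.42, adjusted p = 0.0196), while Tnf differed by -0.13 (adjusted p = 0.47). Nfkbia, the feedback inhibitor of NF-kappaB, was lower by 0.56 (adjusted p = 0.00019) without overlap, with 2 of 17 genes of its list lower. Shares called were 13% of chemokines, 8.7% of cytokines and 11.8% of the Nfkbia list, against 12.4% over all genes. The local acute-phase genes Saa3 (0.30, adjusted p = 0.557) and Lcn2 (-0.33, adjusted p = 0.52) had overlapping groups.

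T cell and NK cell lists were at or below the background share of 12.4%. Of 17 T cell genes, Cd3g was higher by 0.75 (adjusted p = 0.0261) and Il7r, the interleukin-7 receptor, lower by 1.36 (adjusted p = 0.00455), while Cd3e differed by 0.14 (adjusted p = 0.51). The Cd3g call was lost without conventional mouse 1, the highest of its group at 7.75, and without germ-free mouse 1 (0.52, adjusted p = 0.0605). It was also lost without conventional mice 5 and 6 together and with the hepatocyte covariate. Of 12 NK and cytotoxic genes 0 passed the limma test in either direction. At an unadjusted p under 0.05 in limma 5 were higher, against 5239 of all 19938 genes in either direction. Of 25 interferon-stimulated genes 0 were higher and 1 was lower. Among 17 cell division genes the limma count was 0 in both directions, also at an unadjusted p under 0.05.

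Vascular and matrix genes were lower in part. Of 15 endothelial genes 5 were lower and 0 higher, with a median of -0.29, and in 8 the groups did not overlap. Flt1, a receptor for VEGF, had levels of 8.91, 9.09 and 9.24 against 9.56, 9.84 and 9.97, a difference of -0.73 (SE 0.16, adjusted p = 0.00414). Tie1, an orphan receptor of endothelium, Esam, an adhesion molecule, and Cldn5, a tight junction protein, were each lower by 0.69 (adjusted p = 0.00497, 0.00499 and 0.00873). The list means of 9.78 to 9.94 and 9.97 to 10.33 did not overlap, and 3 genes were lower with the hepatocyte covariate. Of 29 matrix genes 5 were lower and 0 higher, among them the matricellular proteins Thbs1 (-1.06, adjusted p = 0.00107) and Tnc (-0.78, adjusted p = 0.0037) and the protease Mmp3 (-0.98, adjusted p = 0.0376). The Mmp3 call was lost in several fits that left out 1 mouse, for example without conventional mouse 3 (adjusted p = 0.0882).

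Clock genes of the period family were lower in conventional mice. Of 17 clock genes 4 were lower and 1 was higher, with a median of -0.30. Per2 had levels of 7.35, 7.52 and 8.19 against 8.38, 8.63 and 8.75, a difference of -0.88 (SE 0.16, adjusted p = 0.00079), and Per1 was lower by 0.95 (adjusted p = 0.00085), both without overlap. Ciart, a repressor of the clock, was lower by 0.92 (adjusted p = 0.007) and Per3 by 0.56 (adjusted p = 0.0334), while Dbp, an output gene of the clock, differed by -0.33 (adjusted p = 0.358). The Per3 call was lost after median centring and without any 1 of conventional mice 1 to 4 or germ-free mice 1 to 3. For Per2, conventional mice 5 and 6 were the highest of their group, and without them the difference was -1.12. The list's lower count was 7 without these mice and 0 with the hepatocyte covariate. Mice 5 and 6 were set apart by the glucocorticoid list, which holds Per1 too, so values without them are not independent of that choice. The time of day of sampling is not given in the labels.

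Glucocorticoid-responsive genes were lower in part. Of 13 on the list, which includes Per1, 5 were lower and 1, Hsd11b1, was higher, with a median of -0.34. Errfi1, a feedback inhibitor of EGF receptor signalling, was lower by 0.97 (adjusted p = 0.00474), the phosphatase Dusp1 by 0.89 (adjusted p = 0.00662) and the kinase Sgk1 by 0.76 (adjusted p = 0.00164). Tsc22d3, which encodes GILZ, was lower by 0.43 (adjusted p = 0.0169). Fkbp5, a cochaperone of the glucocorticoid receptor, differed by -0.21 (adjusted p = 0.61) over all mice and by -0.64 (adjusted p = 0.0126) without conventional mice 5 and 6, its range in conventional mice being 8.3 to 10.16. Those mice were picked for their high means of this same list, so the second value is no independent support for a lower level. With the hepatocyte covariate 1 gene of the list was lower.

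Immediate early genes, which respond to stimuli within minutes, included 8 of 20 that were lower and 0 higher, with a median of -0.32. Atf3 had levels of 8.85, 9.27 and 10.06 against 10.38, 10.59 and 10.84, a 2.36-fold difference (-1.24 log2, SE 0.24, adjusted p = 0.00157). Egr2 was lower by 0.92 (adjusted p = 0.0224), Dusp1, which is on this list too, by 0.89, and the nuclear receptor Nr4a3 by 0.62 (adjusted p = 0.00178). The count was 5 to 11 without any 1 mouse, falling by over 1.5 times without conventional mouse 3 and without germ-free mouse 3.

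Genes of the stress response were mixed. Of 20 genes of protein folding and amino acid stress 5 were lower and 2 higher, with 3 lower without conventional mice 5 and 6, and 3 to 6 lower without any 1 mouse, the fewest without germ-free mouse 5. Ddit4, an inhibitor of mTORC1, had levels of 8.18, 8.25 and 8.5 against 8.71, 8.99 and 9.26, a difference of -0.67 (SE 0.08, adjusted p = 3.8e-05). Herpud1, of the degradation pathway of the endoplasmic reticulum, was lower by 0.48 (adjusted p = 0.00067) and Psat1, a serine synthesis enzyme, was higher by 0.39 (adjusted p = 0.00306), and in these 3 genes the groups did not overlap. Nfe2l2, the antioxidant regulator NRF2, was lower by 0.47 (adjusted p = 0.00106) without overlap, and Hmox1, haem oxygenase, by 0.73 (adjusted p = 0.0328). They were 2 of the 3 antioxidant genes called among 25, all lower, a share of 12% against 12.4% over all genes. Hmox1 lost its call without conventional mice 5 and 6 together. The call was also lost without any 1 of conventional mice 3 to 6 or germ-free mouse 2, 3 or 5. Hspa1a, an inducible heat shock protein, and its cochaperone Dnajb1 were singled out after their values were seen. Hspa1a had levels of 8.21, 8.36 and 8.52 against 9.15, 9.85 and 10.5, a 2.82-fold difference (SE 0.15 on the log2 scale, adjusted p = 1.5e-06), and Dnajb1 was lower by 0.45 (adjusted p = 0.00067). Hspa1a has a near-identical neighbour, Hspa1b, whose transcript its probes may also measure.

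**Figure D4:**
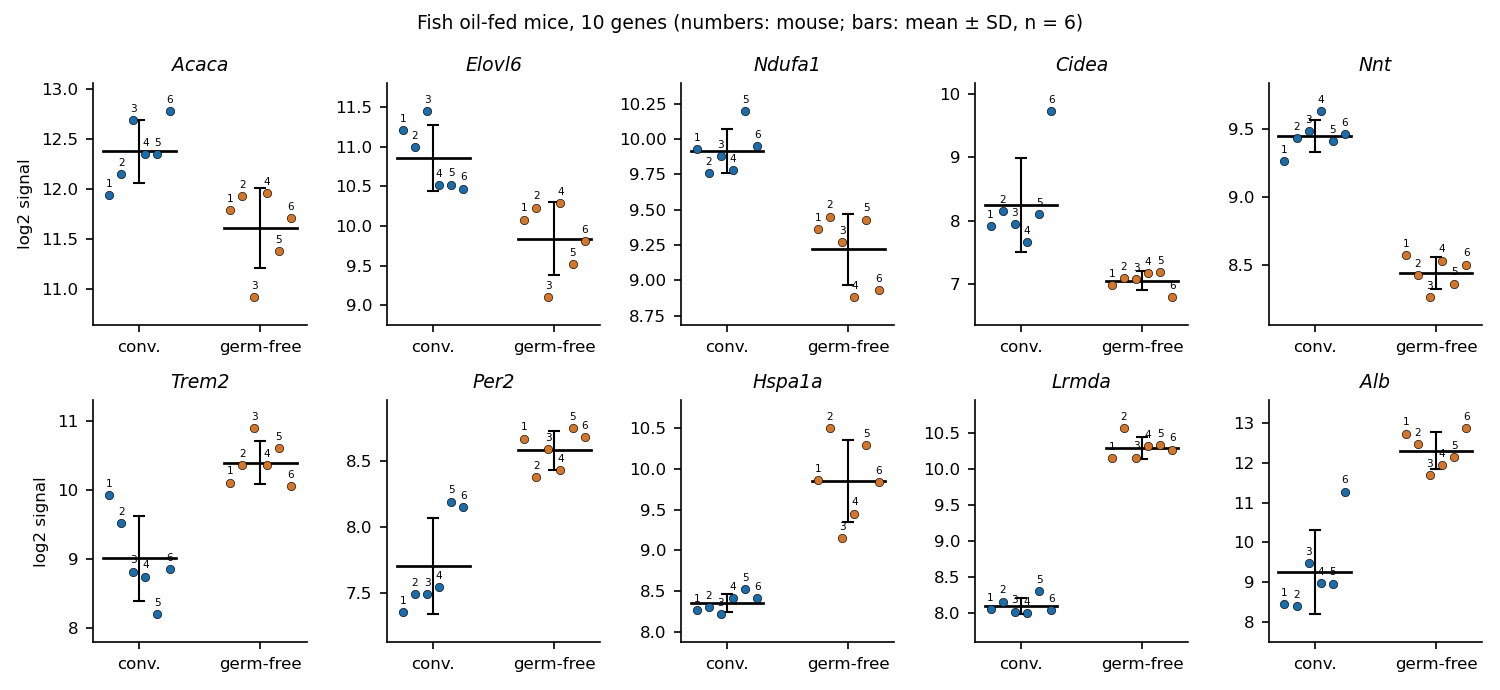
Log2 signal of 10 genes in each fish oil-fed mouse (numbers are mice, bars the group mean and SD, n = 6). Conventional and germ-free mice overlap in Acaca, for which germ-free mouse 3 is lowest (10.92), and in none of the other genes shown. Conventional mouse 6 has the top values of Cidea (9.73) and Alb (11.28) in its group.

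Promoters were read for the genes of 6 of the lists, for lipogenesis, cholesterol, respiration, the clock, immediate early genes and hepatocytes, and for Hspa1a. Of the 19938 genes 15614 had a promoter window of 300 bases in RefSeq (GRCm38.p6), 250 before and 50 after the start. Exact letters were searched on both strands. The cyclic AMP response element TGACGTCA was in 2.72% of all windows, in 2 of 15 windows of immediate early genes, those of Dusp1 and Btg2, in 1 of 21 of respiration genes and in 1 of 15 of clock genes. The heat shock element GAANNTTC was in 7.94% of all windows and in that of Hspa1a, and also in 4 of 21 windows of respiration genes, 2 of 15 of immediate early genes, 2 of 16 of cholesterol genes and 1 of 25 of hepatocyte genes. The nuclear respiratory factor element GCGCATGCG was in 2.85% of all windows, in 2 of 21 of respiration genes, Ndufa8 and Uqcrc1, in 1 of 16 of cholesterol genes and in 1 of 15 of clock genes. The sterol regulatory element TCACCCCAC was in 0.634% of all windows, in 1 of 16 of the cholesterol list, Hmgcs1, and in 0 of 14 of the lipogenesis list. The hepatocyte nuclear factor 1 site GTTAATNAT was in 0.801% of all windows and in 2 of 25 of the hepatocyte list, Alb and Fga. In the other pairs of list and motif 0 windows held a match. A match is a stretch of letters, not a measured binding site. The stretches around 3 matches are shown for genes that were lower in conventional mice without overlap, Dusp1, Hspa1a and Alb, with the match in capitals, 5′ to 3′ on the strand of the gene. They lie before the gene's start at chr17:26508568-26508655 (minus strand), chr17:34972213-34972300 (minus strand) and chr5:90460798-90460869 (plus strand), and the matches begin 143, 104 and 32 bases before the start.
Dusp1: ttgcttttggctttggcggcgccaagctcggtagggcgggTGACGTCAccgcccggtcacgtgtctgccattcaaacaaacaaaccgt
Hspa1a: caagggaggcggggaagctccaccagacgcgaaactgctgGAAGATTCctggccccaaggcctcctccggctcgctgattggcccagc
Alb: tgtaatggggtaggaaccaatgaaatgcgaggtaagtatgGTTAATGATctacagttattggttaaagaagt

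Transcripts of hepatocytes included the largest differences. Of 32 measured, 27 were lower in conventional mice and 0 higher, with a median of -1.33 and a range from -3.95 to 0.37. Albumin (Alb) had levels of 8.39, 8.97 and 11.28 against 11.7, 12.32 and 12.88, an 8.34-fold difference (-3.06 log2, SE 0.62, adjusted p = 0.00259). Serpina1c, an alpha-1-antitrypsin, was 15.48-fold lower (4.55, 5.11 and 8.56 against 8.41, 9.73 and 10.77, adjusted p = 0.00056). The fibrinogen chain Fgb (6.54-fold), fetuin-A (Ahsg, 6.42-fold), transthyretin (Ttr, 5.55-fold), apolipoproteins Apoa2 (5.53-fold) and Apoa1 (5.27-fold) and Fgg (5.23-fold) followed. Fabp1, the fatty acid binding protein of liver, was 8.99-fold lower (adjusted p = 0.00176) and the iron hormone gene Hamp 3.97-fold (adjusted p = 0.00347). Hnf4a, the hepatocyte nuclear receptor, differed by -0.35 (adjusted p = 0.356), but its levels of 6.98 to 7.18 against 7.28 to 7.64 did not overlap. In a fit of the fish oil-fed mice alone the adjusted p was 0.00429, the lard-fed germ-free mice ranging from 6.89 to 9.18.

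The list mean was 6.42 to 6.70 in conventional mice 1 to 5 and 7.58 in mouse 6, against 7.57 to 8.67 in germ-free mice. Mouse 6 thus lay at the level of germ-free mouse 3, and without mice 5 and 6 the count was 28. It was 26 to 29 without any 1 mouse. With lard 0 of the 32 genes passed the limma test in either direction, with 4 higher at an unadjusted p under 0.05. The unadjusted count over all 19938 genes with lard was 5608. The lard-fed groups had list means of 6.26 to 7.28 (germ-free) and 6.52 to 7.56 (conventional), the highest of them next to the lowest fish oil-fed germ-free mouse. Among the genes outside the list that are also abundant in liver, Pzp (4.39-fold), Mug1 (3.63-fold) and Fabp1 were lower, and their differences were 0.48, 0.38 and -0.02 with lard. Fabp1 is a gene of the gut as well, and without lard-fed germ-free mouse 4 its lard difference was 0.64. The part of these transcripts in the other differences was not tested. In the covariate fit 871 of the 2464 genes kept their call, but the covariate nearly separated the groups, so that fit cannot decide it. With the covariate the median of the intestinal epithelium list was 0.92, against -0.01 without it. Calls of at least 1.5-fold numbered 593, against 361 without it.

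A short list held genes picked earlier, on these samples, as markers of the 2 kinds of mice, so its counts are no independent support. All 5 passed the test with fish oil, 4 higher and 1 lower, and in all the groups did not overlap. Nnt, the mitochondrial transhydrogenase that makes NADPH, had levels of 9.26, 9.45 and 9.63 against 8.26, 8.46 and 8.57, a 2.01-fold difference (1.01 log2, SE 0.08). Its difference with lard was 0.60, and the difference of the 2 was 0.41 (adjusted p = 0.0336, and 0.0593 without lard-fed germ-free mouse 4). Part of Nnt is deleted in the substrain C57BL/6J and intact in others, and the labels name no substrain. Rab4a, a GTPase of recycling endosomes, was higher by 0.92 with fish oil and by 0.60 with lard, and Wdfy1, an endosomal adaptor, by 0.57 and 0.40. Entpd4, a nucleotidase of the Golgi, was lower by 0.59 and 0.94. Ide, the insulin-degrading enzyme, had opposite signs, higher by 0.36 with fish oil and lower by 0.38 with lard.

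Lrmda, a leucine-rich repeat gene of melanocyte differentiation, had the smallest adjusted p among the genes named. Its levels were 8.0, 8.04 and 8.3 in conventional and 10.15, 10.29 and 10.57 in germ-free mice, a 4.61-fold difference (-2.21 log2, SE 0.10, adjusted p = 4.9e-13). The gap between the groups, from 8.3 to 10.15, was far wider than the range within either. With lard its difference was -2.22, and the difference of the 2 was 0.01 (adjusted p = 0.978). Leaving out mice 5 and 6 or adding the hepatocyte covariate left it at -2.24 and -2.20.

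The same comparison in lard-fed mice shares no animals with that in fish oil-fed mice. With lard 3240 genes (16.3%) passed the test, and 736 did so with both diets, 29.9% of the fish oil calls and 22.7% of the lard calls. Of these, 542 were higher and 134 lower in conventional mice with both diets, and 60 had opposite signs. The difference between the diets was tested for each gene. It passed in 1435 genes (7.2%), more positive with fish oil in 874 (4.38%) and more negative in 561 (2.81%). The positive share was 60.9% and became 84.4% with median centring. Leaving out conventional mouse 3 gave 909 genes, leaving out mice 5 and 6 gave 902, and leaving out lard-fed conventional mouse 3 or germ-free mouse 4 gave 861 or 925.

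Energy lists had the following counts by this test. Of the 29 oxidative phosphorylation genes 21 were higher and 2 lower with lard too, with a median of 0.28, and 4 were more positive with fish oil, against 4.38% of all genes. No test compared the lists with each other. Ndufa1, for example, was higher by 0.70 with fish oil and 0.56 with lard (adjusted p = 0.68 for the difference of the 2). Of the citric acid cycle and pyruvate genes 4 were higher and 3 lower with lard, with a median of -0.05, and 7 of 21 were more positive with fish oil. Suclg2, a subunit of succinyl-CoA synthetase, was higher by 0.42 with fish oil and lower by 0.42 with lard, a difference of 0.85 (adjusted p = 0.011). Its fish oil call was lost without mice 5 and 6 (0.25, adjusted p = 0.29). The call was also lost with fish oil-fed mice only, and without any 1 of conventional mice 3 to 6 or germ-free mice 1 to 5. Pdk1 and Dlat were more positive by 0.67 and 0.44 (adjusted p = 0.0157 and 0.0286). Of 25 fatty acid oxidation genes 3, and of 22 genes of branched-chain amino acid breakdown 1, were more positive with fish oil.

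Lipogenesis genes had 0 limma calls with lard. At an unadjusted p under 0.05 in limma 1 of 14 passed with lard, against 5608 of all 19938 genes. By the test between diets 5 of 14 were more positive with fish oil, among them Elovl6 (by 1.22, adjusted p = 0.00443), Acss2 (by 0.86, adjusted p = 0.0312) and Acaca (by 0.80, adjusted p = 0.0341). Without lard-fed germ-free mouse 4 the count was 2, with adjusted p values of 0.0543 for Acss2 and 0.0569 for Acaca. For Acly (0.74, adjusted p = 0.0713) and Fasn (0.40, adjusted p = 0.184) the difference between the diets missed the threshold. In the plot of list means, conventional fish oil-fed mice lay above the 3 other groups, which overlapped. Gys2 (by 1.63, adjusted p = 0.00499), Rasd1 (by 1.51, adjusted p = 0.00556), Rgs7 (by 1.14, adjusted p = 0.00238), Hsd11b1 (by 1.10, adjusted p = 0.0225) and Cidea (by 1.06, adjusted p = 0.0469, and 0.0608 without that mouse) were further genes that were more positive with fish oil. Ffar4 was higher by 0.41 with fish oil and differed by -0.10 with lard (adjusted p = 0.0464 for the difference of the 2, and 0.0769 without lard-fed germ-free mouse 4). For cholesterol synthesis 5 of 20 genes were higher with lard as well, and 1 gene in each direction, Lss the positive one (by 0.72), differed between the diets.

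**Figure D5:**
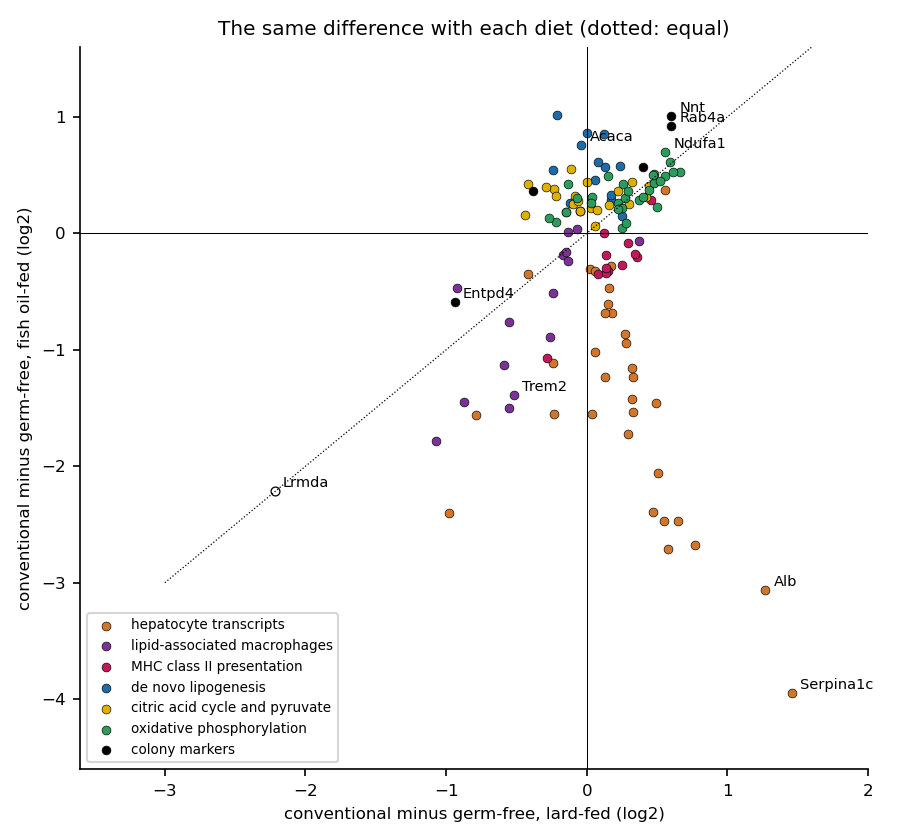
Difference between conventional and germ-free mice with fish oil (vertical, log2) against the same difference with lard (horizontal, log2) for the members of 7 lists and for Lrmda (open circle); the dotted line marks equal differences. Lrmda lies on the line at -2.21 and -2.22, oxidative phosphorylation genes scatter near it, and Serpina1c and Alb lie far below it at -3.95 and -3.06 with fish oil.

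Several immune lists held genes that were more negative with fish oil than with lard. These were 5 of 17 local acute-phase genes, 4 of 12 dendritic cell genes and 4 of 23 chemokines, against 2.81% of all genes. With lard 4 of the 12 MHC class II genes were higher and 0 lower, and 7 were more negative with fish oil, among them Cd74 (-0.48, adjusted p = 0.00762), H2-Eb1 (-0.47, adjusted p = 0.0205) and Ciita (-0.45, adjusted p = 0.00924). Of the lipid-associated macrophage genes 3 were lower and 1 higher with lard, and 0 of 16 differed between the diets in limma, with 4 at an unadjusted p under 0.05. Between the diets 4420 of all 19938 genes passed that unadjusted threshold. For Trem2, lower by 1.39 with fish oil and by 0.52 with lard, the difference was -0.87 (adjusted p = 0.205), and for Gpnmb it was -0.96 (adjusted p = 0.139). Saa3 and Lcn2 were higher by 1.94 and 1.13 in conventional mice with lard, and the fish oil difference minus the lard difference was -1.64 (adjusted p = 0.0149) and -1.46 (adjusted p = 0.0343). Il1a was lower by 0.92 with fish oil against a difference of 0.26 with lard (adjusted p = 0.00271 for the difference of the 2).

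Of the clock genes, with lard 7 of 17 were lower and 1 higher, and 1 differed between the diets (0 without lard-fed germ-free mouse 4). Per2 was lower by 0.88 with fish oil and 0.71 with lard (adjusted p = 0.696 for the difference of the 2), and Per3 by 0.56 and 0.63. Of the hepatocyte transcripts 24 of 32 were more negative with fish oil (26 without lard-fed germ-free mouse 4), such as Serpina1c (-5.42, adjusted p = 0.00186) and Alb (-4.33, adjusted p = 0.00512). The difference between the diets was -1.13 for Hspa1a (adjusted p = 0.00271) and -0.67 for Ddit4 (adjusted p = 0.00186), with differences of -0.36 and 0.00 with lard.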

How the data were processed

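The deposited table holds log2 expression values per probe set, which the authors made by RMA (submitters' processing notes). This method subtracts background, applies quantile normalization and summarises probes, which brings array distributions together and compresses low signals. Of 35556 probe sets 21789 had 1 gene symbol, 1621 several and 12146 none. Symbols were updated by Entrez ID (21698 found), and the probe set with the highest mean stood for a gene (19938 genes). The 4 group means were estimated from the 24 arrays in limma 3.58.1 (lmFit, then eBayes, under R 4.3.3). Every adjusted p is limma's, two-sided and Benjamini-Hochberg adjusted over the 19938 genes of a comparison, with a threshold of 0.05. Each mouse gave 1 array, 0 pairs of arrays were identical, and the number of arrays limits precision. No batch of arrays is named in the sources used here.

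Members, lists and tests were chosen with earlier results of these data known. Named genes were up to 15 of the largest differences in each direction, up to 5 called members of each list in each direction, a panel, the 8 largest differences between diets of each sign, and the hepatocyte and colony lists. Hspa1a, Dnajb1 and the genes named only for a promoter match fall outside this rule. On simulated data for these 19938 genes the fish oil comparison recovered 95% of 100 genes changed by 1 log2 and 81% of 100 changed by 0.5, with 6.38% false among calls. The simulated noise was normal, independent between genes and of equal spread in the 4 groups, and no other genes were changed. Real values need not meet these settings, so 6.38% is not an error rate of the real calls. Alternatives were fish oil-fed mice only, median centring, repeated quantile normalization, a filter at the 40th percentile, mean of probe sets, array weights, trend and robust priors, a block for mouse number, tests of all probe sets, the hepatocyte covariate, at least 1.5-fold, each mouse left out and, added after seeing the data, conventional mice 5 and 6 left out and, for list counts and named genes compared between diets, lard-fed germ-free mouse 4 left out.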

Additional observations from a re-analysis of the deposited data

Results flagged for a closer look

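Some single mice lay far from the other 5 of their group by Dixon's criterion, in 21 of 276 gene and group pairs checked. Chance flags about 1 in 20. Conventional mouse 6 held most of the high values, and these were hepatocyte or liver-abundant transcripts in 12 genes. It stood at 11.28 for Alb, 8.34 for Fgb, 7.91 for Ahsg, 8.93 for Ttr, 9.30 for Apoa2 and 8.73 for Apoa1. It stood at 7.44 for Fgg, 8.14 for Hpx, 7.11 for Cps1, 6.78 for Cyp3a11, 7.63 for Fabp1 and 7.63 for Pzp. The same mouse was highest for Cidea (9.73) and Slc25a20 (10.52) and lowest for Saa3 (8.19). Among the other conventional mice, mouse 5 was low for Ffar2 (9.59), mouse 4 high for Cldn5 (10.69), mouse 1 high for Cd3g (7.75) and mouse 3 low for Cd3e (7.70). In germ-free mice, mouse 2 was low for Fam13a (11.78) and mouse 1 low for H2-Aa (11.80).

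In 49 named genes the difference between conventional and germ-free mice was not the same with fish oil as with lard, at an adjusted p under 0.05 in limma. Values here are the fish oil difference minus the lard difference, in log2. Hepatocyte or liver-abundant transcripts had negative values, with Serpina1c at -5.42, Alb at -4.33, Ahsg at -3.45, Fgb at -3.29, Fabp1 at -3.15, Ttr at -3.12 and Apoa2 at -3.01. They went on with Fgg at -2.86, Pzp at -2.61, Kng1 at -2.57, Hamp at -2.37, Mug1 at -2.24, Apoh at -2.0, Hpx at -1.95 and Cyp3a11 at -1.59. Immune and inflammatory genes had Saa3 at -1.64, Lcn2 at -1.46, Il1a at -1.18, Nfkbia at -0.58, Cd74 at -0.48, H2-Eb1 at -0.47, Ticam1 at -0.47, Ciita at -0.45 and Lyz2 at -0.37. Stress, matrix and endothelial genes had Hspa1a at -1.13, Thbs1 at -0.90, Tnc at -0.82, Tie1 at -0.78, Nr4a3 at -0.70 and Ddit4 at -0.67.

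Positive values mark a conventional minus germ-free difference that was more positive with fish oil than with lard. They included lipid synthesis genes, with Elovl6 at 1.22, Acss2 at 0.86, Acaca at 0.80, Lss at 0.72 and Fads1 at 0.57. Mitochondrial genes were Suclg2 at 0.85, Pdk1 at 0.67, Dlat at 0.44, Nnt at 0.41 and Slc25a20 at 0.35. The others were Gys2 at 1.63, Rasd1 at 1.51, Rgs7 at 1.14, Hsd11b1 at 1.10, Cidea at 1.06, Ide at 0.75, Psat1 at 0.61, Ffar4 at 0.51 and Entpd4 at 0.35. Without lard-fed germ-free mouse 4, whose intestinal epithelium mean stood apart, Cidea, Nnt, Slc25a20, Acss2, Acaca, Ffar4, Lyz2, Tie1, Thbs1 and Tnc had adjusted p values between 0.0508 and 0.0769.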

How the results depend on the processing

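The 2464 calls (1425 higher, 1039 lower) became 1611 (854 higher) with the hepatocyte covariate, 1606 (931 higher, 675 lower) without conventional mice 5 and 6 and 361 (79 higher, 282 lower) at 1.5-fold or more, and 2757 genes were higher after median centring. The 1435 differences between diets became 2526 with array weights, 902 without mice 5 and 6, 925 without lard-fed germ-free mouse 4 and 385 at 1.5-fold or more, and ranged from 861 to 2070 over fits that left out 1 mouse, lard-fed mice included. Counts without 1 mouse ranged from 1761 to 2752 for the fish oil calls, and the low end was without conventional mouse 3. Other settings kept both counts within 1.5 times. Deviations of conventional and germ-free mice with the same number correlated between -0.233 and 0.251. Mice with different numbers were not compared in this way, so whether the numbers pair the mice was not settled. A fit with the number as a replicate block gave 2294 calls. Of 121 named genes with a call, 98 kept it whichever 1 mouse was left out and 23 lost it at least once. With the hepatocyte covariate 69 of 108 kept it, the members of the covariate not counted, and Fabp1 changed sign (0.42). Sign changes of genes without a call were Tlr4 (0.02 with median centring, 0.04 with the covariate and 0.01 without germ-free mouse 2, from -0.09 to 0.01 over single mice left out), Lep (0.03 without conventional mouse 6, from -0.18 to 0.03 over single mice, and 0.07 without mice 5 and 6), Lcn2 (0.02 without mice 5 and 6), and Saa3 (-0.84), Dbp (0.02) and Cd3e (-0.02) with the covariate. Counts of 2 or 3 genes in the Toll-like receptor, sensor, chemokine, cytokine, adipocyte and antioxidant lists fell to 1 without some single mice. Without conventional mice 5 and 6 together, lower counts went from 2 to 0 for sensors, 3 to 1 for antioxidant genes, and 2 to 1 for cytokines, chemokines, the Toll-like receptor pathway and plasma cells. They went from 1 to 0 for mesothelium, B cells, fat-sensing receptors and metabolite sensors. Higher counts went from 2 to 0 for fat-sensing receptors, 3 to 1 for insulin signalling, 2 to 1 for stress genes, 1 to 3 for clock genes, 0 to 1 for NK cells, triglyceride synthesis and matrix genes, and 1 to 0 for chemokines, T cells, acute-phase genes and resident macrophages. The cause of these changes was not tested. Low signals limit what can be seen of weakly expressed genes.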
